A study of Mus musculus with 24 samples.

Results

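The mouse microRNAs mmu-miR-212-3p, mmu-miR-212-5p and mmu-miR-132-3p, written below without their species prefix, were followed in RNA of serum exosomes, 3 of the 1881 miRNAs on the array, chosen by their names in the array files. They were taken because miR-212-3p had already been seen to be higher after toosendanin in these arrays, so its difference between treated and control arrays is given as a description, with no test. The remaining strand of the pair, miR-132-5p, was added for completeness. Toosendanin (TSN) is a plant triterpenoid with known liver toxicity. Male BALB/c mice were exposed to vehicle or to 80 mg/kg of TSN over 3, 9 or 21 days, and serum was taken 24 h after the last dose. Each of the 6 groups (vehicle or TSN, at day 3, 9 or 21) had 4 samples, each hybridised with a single dye, Cy3, to its own array, 24 in all. Neither the animals' age nor the number of animals behind a sample is given in the labels, so a p-value here covers the spread among samples, which may be technical. In RNA from serum vesicles, a change in the number of vesicles and a change in their content cannot be told apart.

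A microRNA hairpin is cut into a 5p and a 3p strand, and one of them is usually kept on the Argonaute protein, where its seed pairs with target messenger RNAs. Mir212 and Mir132 are neighbouring hairpins of the same primary transcript, which the transcription factor CREB induces in neurons after activity and growth factors. The pair is also known for roles in heart muscle growth and in the response of immune cells to endotoxin.

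The mature sequences are shown because the strands that gave signal share their seed, bases 2 to 8, written here in capitals from 5′ to 3′ (RefSeq, GRCm38.p6).
miR-212-3p: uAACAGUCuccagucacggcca
miR-132-3p: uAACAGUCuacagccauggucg
miR-212-5p: aCCUUGGCucuagacugcuuacu
miR-132-5p: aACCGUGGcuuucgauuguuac
All lie on the plus strand of chromosome 11. miR-212-3p is at chr11:75173443-75173464 and miR-212-5p at chr11:75173403-75173425, both inside the 91-base Mir212 hairpin. miR-132-3p is at chr11:75173723-75173744 and miR-132-5p at chr11:75173686-75173707, both inside the 66-base Mir132 hairpin, and 203 bases separate the hairpins. The annotation places the protein-coding genes Hic1 before and Ovca2 after the pair. Among the 1738 mature miRNAs of the reference, only miR-212-3p and miR-132-3p carry the seed AACAGUC. They are identical at 17 of 22 bases and over the first 9, and differ by C10A, U14C, C17U, C20U and A22G, counted from the 5′ end with the miR-212-3p base first.

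The differences lie in the 3′ portion of the molecule that the array probes read, which bears on whether the strands can be told apart. The probe used for miR-212-3p, tggccgtgactgga, covers its bases 9 to 22, and a shorter one, tggccgtgactgg, covers bases 10 to 22. The probe used for miR-132-3p, cgaccatggctgtaga, covers its bases 7 to 22, and the shorter cgaccatggctgtag covers bases 8 to 22. Each of them matched in full only 1 mature sequence of the reference. The longest run that a miR-212-3p probe had in common with the complement of miR-132-3p was 5 bases, and it was 4 bases the other way round. Cross-hybridisation itself was not tested.

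The TSN arrays were brighter than the control arrays. The 75th percentile of the probes used for scaling lay between 73.5 and 609 intensity units on control arrays and between 737 and 1750 on TSN arrays. Of the 1881 miRNAs, 184 to 351 were well above background per control array and 379 to 471 per TSN array. Controls of days 3 and 9 were on slide 1 and those of day 21 on slide 2, while TSN samples of day 3 were on slide 3 and those of days 9 and 21 on slide 4, so that arm and slide cannot be told apart. Slide 1 was scanned on date 1, slide 2 on date 2 and slides 3 and 4 on date 3, so arm and scan date cannot be told apart either. Comparisons of control day 21 with the other control days cross both slide and scan date. Groups on the same slide lay in different rows of it. A scaled signal is the probe's signal divided by that percentile of its array, given as log2, and never below a floor of -6.21.

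The measured signal of miR-212-3p was higher on every TSN array than on every control array, at all 3 days, but most control arrays did not measure it above background. The software placed it well above background on all 12 TSN arrays, but on 4 of the 12 control arrays. Its unscaled signal was 2.33 to 20.7 intensity units on the control arrays and 113 to 275 on the TSN arrays. At day 3 the log2 scaled signals were -5.18, -5.38, -4.81 and -4.84 in control replicates 1 to 4, and -3.10, -2.70, -2.93 and -3.28 in TSN replicates 1 to 4. The groups did not overlap, and the measured TSN mean was 2.05 higher (SE 0.19, n = 4 in each group). Only control replicate 4 was well above background among the day 3 controls. At day 9 the log2 scaled signals were -5.23, -5.54, -4.58 and -4.89 in the controls and -3.49, -3.77, -3.14 and -3.53 in the TSN samples. The measured difference was 1.58 (SE 0.19, n = 4 in each group), again without overlap of the measured values, and control replicate 3 was the only control above background. At day 21 they were -5.07, -4.48, -4.88 and -4.64 in the controls and -2.69, -2.59, -2.45 and -2.52 in the TSN samples. This gave a difference of 2.20 (SE 0.19, n = 4 in each group), without overlap, with control replicates 2 and 3 above background.

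Since the other control signals were not well above background, the size of these differences is better read as a bound. Under the processing of the report, each such array was set at its lowest signal well above background, or at the probe's own signal where that was higher. With these settings miR-212-3p was at least 2.42-fold higher in TSN at day 3 (1.28 on the log2 scale) and at least 3.42-fold higher at day 21 (1.78). The groups did not overlap at these days under this limit. At day 9 the bound was 1.20-fold (0.26), and the limits of the dim control arrays, up to -3.22, overlapped with the TSN signals. This limit was chosen after the data were seen. The bounds allow for dim control arrays only, and not for the choice of scaling, probe or background correction. Some of the other processing given below put the difference under them or reversed it, such as 1.47 at day 21 in the authors' deposited values.

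These differences stood among many others. limma called 47.3% of the 444 miRNAs tested between TSN and control at day 3, 62.2% at day 9 and 44.8% at day 21, at a Benjamini-Hochberg adjusted p under 0.05. The 2 groups of 4 did not overlap for 40.5%, 51.6% and 38.3% of them, in measured values with the floor. The shorter probe of miR-212-3p gave log2 differences of 1.98, 1.14 and 1.94 at days 3, 9 and 21. It was well above background on 0, 0 and 2 of the 4 control arrays at these days, and 1 control array of each day lay at the floor. The sizes of these differences therefore rest on mostly dim controls too.

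**Figure D1:**
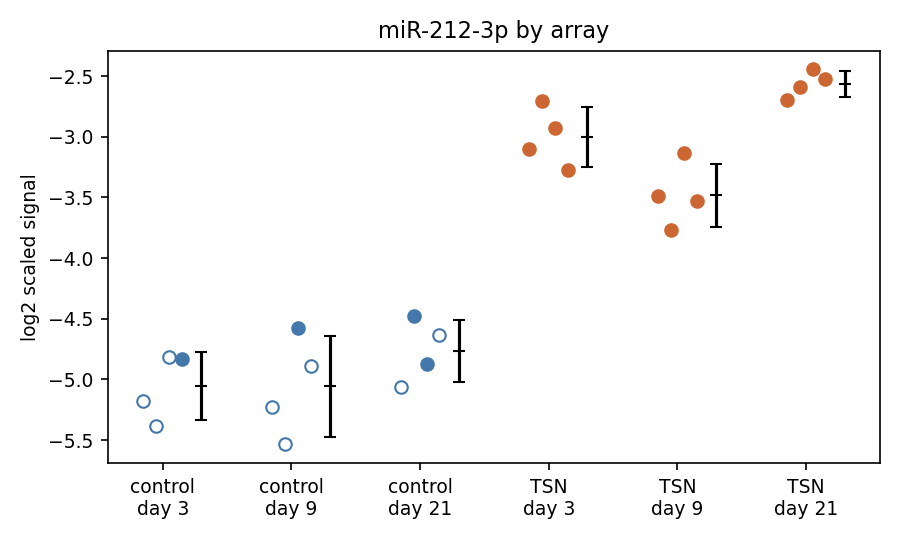
Log2 scaled signal of miR-212-3p on each of the 24 arrays, by arm and day, with control arrays in blue and TSN arrays in orange. Filled points were well above background and open points were not; the bars give the mean and SD of 4 arrays. All 12 TSN points lie above all 12 control points, of which 8 are open, and TSN day 21 lies above TSN day 9.

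Array brightness moved with the arm, and within the control arm miR-212-3p moved with it too. Across the 12 control arrays the unscaled signal of miR-212-3p followed the array's 75th percentile, with a Pearson correlation of 0.975 on log2 values, while across the 12 TSN arrays it was 0.415. After scaling, the correlation with the log2 of that percentile was 0.614 over the control arrays, -0.366 over the TSN arrays and 0.888 over all 24. These values describe arrays that share slides, and the part of brightness in the difference between arms was not tested. The brightest control array, day 21 replicate 3, gave 20.7 units of miR-212-3p at a percentile of 609, and the dimmest TSN array, day 3 replicate 2, gave 113 units at 737.

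**Figure D2:**
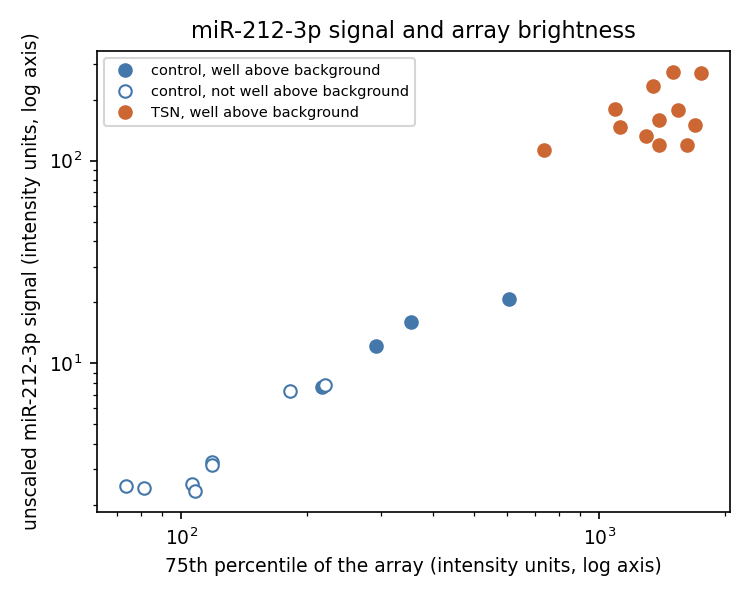
Unscaled miR-212-3p signal of each array against the 75th percentile of that array, both in intensity units on log axes, with control arrays in blue and TSN arrays in orange. Filled points were well above background. The control points rise along a line from 2.33 to 20.7 units, and the TSN points form a cloud between 113 and 275.

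The direction of the miR-212-3p difference depended on the background correction and on how probes were summarised. The normexp correction was run here with a chosen offset of 50 units, added to every signal. That offset is larger than any unscaled control signal of miR-212-3p in the report (2.33 to 20.7 units). With this correction the log2 differences of miR-212-3p became -0.77, -1.38 and -0.18 at days 3, 9 and 21. The median over all 444 miRNAs then moved to -1.56, -2.08 and -1.37, so that miR-212-3p lay above the median by 0.80, 0.69 and 1.19. With no scaling its differences were 3.87, 3.73 and 4.16, which is 1.69, 1.32 and 2.10 above the median miRNA. The scanner software's own total gene signal gave -0.52 at day 3. That total was 166 and 168 on control day 3 replicates 3 and 4, where the main probe read 7.84 and 7.62 units. It was 76.8 on control day 21 replicate 4 against 7.33 units for the probe. On the other 21 arrays it was between 0.162 and 0.444 times the probe's signal. Against the median of all miRNAs tested, miR-212-3p was above it at every day in 8 of the 9 sets of values drawn, and at days 9 and 21 only in the total gene signal. The sets are not independent, since they process the same arrays again and the halved floor left its differences unchanged. As miR-212-3p was chosen for being higher in these arrays, this count is a description and not support.

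**Figure D3:**
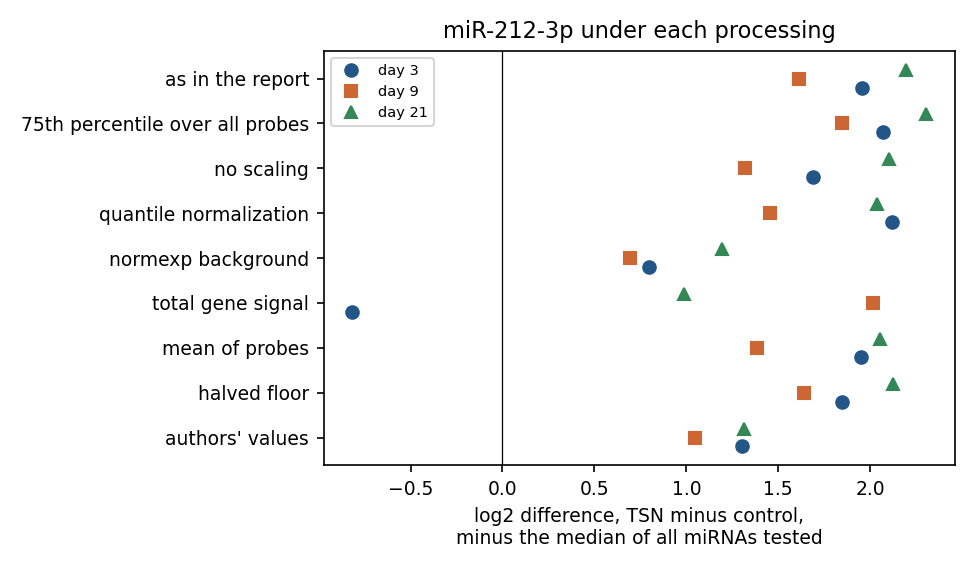
Log2 difference of miR-212-3p between TSN and control minus the median difference of the 444 miRNAs tested, at days 3, 9 and 21, under the processing of the report and 8 others. Each point is a difference of means of 4 arrays per group. The points lie right of 0 except the total gene signal at day 3, at -0.82.

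Among the TSN samples, miR-212-3p was higher at day 21 than at day 9, both on slide 4. The difference was 0.92 on the log2 scale (SE 0.19, n = 4 in each group), or 1.89-fold, with a limma adjusted p of 0.000742 over the 444 miRNAs, and the groups did not overlap, which held for 38.7% of all miRNAs tested. Without scaling the arrays did not overlap either, with 119 to 158 units at day 9 and 180 to 275 at day 21. Between these days 43.5% of the miRNAs tested were called, and the median miRNA rose by 0.17. The call was lost in 5 of the alternatives, the authors' deposited values among them (0.54, limma adjusted p = 0.0544), and the difference stayed between 0.54 and 0.94 over all 10. TSN replicate 1 of day 21 had 9 spots of the probe left after outlier spots were removed, against 13 to 15 on the other TSN arrays of days 9 and 21.

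The change from day 3 to day 9 of TSN did not pass the test. The difference of miR-212-3p, day 9 minus day 3, was -0.48 (SE 0.19, n = 4 in each group) with a limma adjusted p of 0.0543, and the groups overlapped. Among all miRNAs tested 34.9% were called and 28.6% had groups that did not overlap. Leaving out TSN day 9 replicate 3 gave -0.60 (adjusted p = 0.0219), and leaving out TSN day 3 replicate 4 gave -0.57 (adjusted p = 0.0408). Leaving out control day 9 replicate 2, control day 9 replicate 3 or control day 3 replicate 2, which enter only through the pooled spread, gave adjusted p of 0.0351, 0.0354 and 0.0496. With any other array left out it did not pass, and without TSN day 3 replicate 2 it was -0.38 (adjusted p = 0.174). Of the 10 alternatives 8 did not pass either. The difference was -0.18 with the percentile over all probes (limma adjusted p = 0.782) and -0.06 with no scaling (0.916). Day 21 was 0.44 above day 3 (SE 0.19, n = 4 in each group, limma adjusted p = 0.183). These groups did not overlap, as for 11.3% of all miRNAs, and 6.98% were called. These comparisons are between slides 3 and 4. They depended on the probe. The shorter probe of miR-212-3p was well above background on all 12 TSN arrays and was not tested on its own. Its log2 signals were -4.11 to -3.59 at day 3, -5.14 to -4.37 at day 9 and -3.96 to -3.71 at day 21. Day 9 minus day 3 was then -0.90, and day 21 minus day 3 was 0.07, with overlap. Day 21 minus day 9 was 0.97 with this probe.

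In the control arm no difference of miR-212-3p between days passed the test, but most of these arrays did not measure it. It was well above background on 1, 1 and 2 of the 4 control arrays at days 3, 9 and 21. The tests therefore compare mostly dim signals and cannot show that its level was stable. Day 9 minus day 3, both on slide 1, was -0.00 (SE 0.19, limma adjusted p = 1, with 13.7% of all miRNAs called). Day 21 was 0.29 above day 3 (SE 0.19, adjusted p = 0.311, 22.7% called) and 0.29 above day 9 (SE 0.19, adjusted p = 0.444, 0.45% called). From lowest to highest, the group means were -5.06 ± 0.41 (SD, n = 4) in control day 9, -5.05 ± 0.28 in control day 3, -4.77 ± 0.26 in control day 21, -3.48 ± 0.26 in TSN day 9, -3.0 ± 0.24 in TSN day 3 and -2.56 ± 0.11 in TSN day 21. Neighbours tested in this order without passing were control days 9 and 3, control days 3 and 21, TSN days 9 and 3, and TSN days 3 and 21. Control day 21 and TSN day 9 were not tested against each other.

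miR-132-3p, the strand with the same seed, gave signals near the background. Its longer probe was well above background on 3 of 24 arrays, TSN day 9 replicates 1, 2 and 4, and its shorter probe on 0 of 24. It was not above background on all 4 arrays of any group, so it did not enter the fit. All 24 scaled signals also lay at the floor of -6.21. That floor is above the lowest scaled signals well above background on the TSN day 9 arrays, -7.34 to -7.04, so it hides the arrays that measured the strand. Its unscaled signals were 13.7, 15, 11 and 13.7 units in TSN day 9 replicates 1 to 4. They were 9.03, 2.92, 8.41 and 6.68 units at TSN day 3, and 11.5, 5.29, 7.43 and 5.45 at TSN day 21. On control arrays they lay between -0.821 and 3.47 units, where the lowest signal well above background was 7.24 to 10.3. No fold between TSN and control can be given, since the scaled limits of the dim control arrays lay above the TSN signals.

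**Figure D4:**
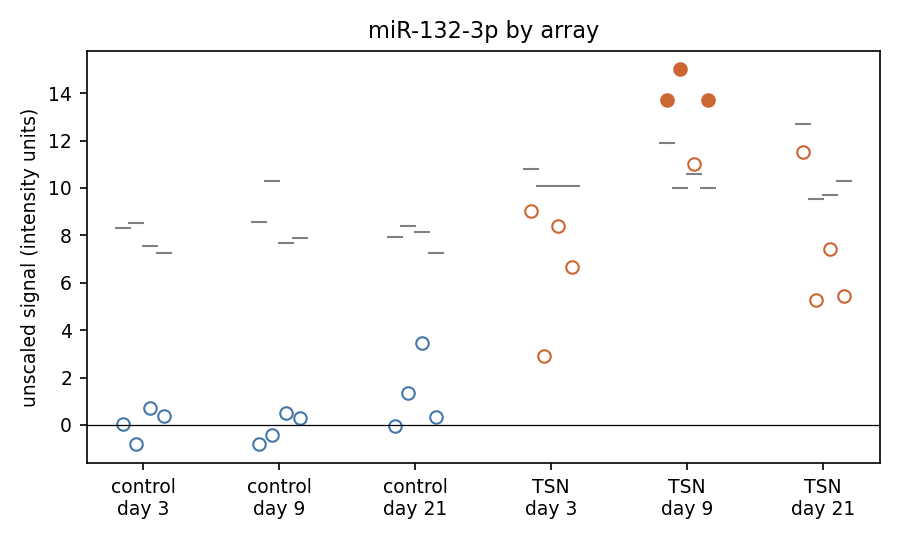
Unscaled signal of miR-132-3p, in intensity units, on each of the 24 arrays, with control arrays in blue and TSN arrays in orange. Filled points were well above background, open points were not, and each grey dash is the lowest signal well above background on that array. Filled points appear at TSN day 9 only, at 13.7, 15 and 13.7 units.

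Read without a floor, the measured scaled signal of miR-132-3p was highest at day 9 of TSN, an order that did not hold at the detection limit. The log2 means were -7.51 ± 0.38 (SD, n = 4) at day 3, -6.84 ± 0.15 at day 9 and -7.63 ± 0.29 at day 21. Day 9 minus day 3 was 0.67 and day 21 minus day 9 was -0.80, each with an exact two-sided permutation p of 0.0286, the smallest that 4 against 4 can give. The groups did not overlap in either comparison, as for 28.6% and 38.7% of the 444 miRNAs tested, whose values carry the floor. Day 21 and day 3 overlapped (-0.12, exact permutation p = 0.657). These readings rest on signals that were not well above background at days 3 and 21. With such arrays set at their own detection limit, day 9 minus day 3 was -0.05 and day 21 minus day 9 was -0.22, with exact permutation p of 0.914 and 0.114. No fold is given between the days.

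The ratio of the strands on the same array needs no scaling, and its measured values were lowest at day 9. It compares the changes of the probes and does not give their relative abundance. miR-212-3p over miR-132-3p was 19.9, 38.7, 17.5 and 19.9 in TSN day 3 replicates 1 to 4, 11, 7.92, 14.4 and 8.77 at day 9, and 23.4, 34, 37.1 and 42.9 at day 21. Day 9 did not overlap with either other day. On the log2 scale day 9 minus day 3 was -1.15 and day 21 minus day 9 was 1.71, each with an exact two-sided permutation p of 0.0286. Day 21 and day 3 overlapped, with a difference of 0.56 and an exact permutation p of 0.114. Over the 6 tests of miR-132-3p and of the ratio, the Benjamini-Hochberg adjusted values of the exact p were 0.0429 for those at 0.0286. Both measures were chosen after the data were seen, and on day 3 and day 21 arrays the miR-132-3p signal below the ratio was not well above background. With miR-132-3p at the detection limit there, the ratio was at least 18.8, 21.3, 22.6 and 28.3 on the day 21 arrays in order of size. It was 7.92, 8.77 and 11 on the 3 day 9 arrays of the same slide that measured miR-132-3p, below each of these bounds, while the 14.4 of day 9 replicate 3 is itself without a measured miR-132-3p. For day 3 the lower bounds were 11.2 to 16.6, and day 9 minus day 3 was then -0.43 (exact permutation p = 0.114), so that the difference from day 3 did not hold under this limit. The shorter probes, of which that of miR-132-3p was above background on none of the 12 arrays, gave 11.9 to 107 at day 3, 4.44 to 9.77 at day 9 and 14.1 to 30.4 at day 21.

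**Figure D5:**
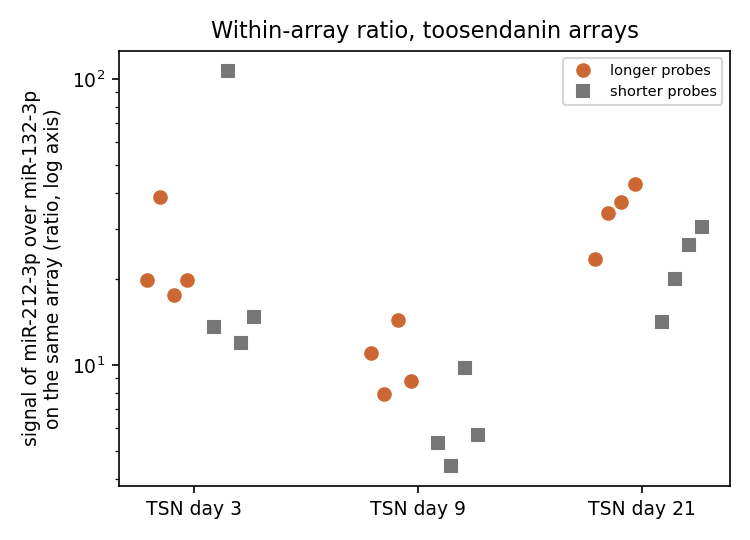
Ratio of the unscaled signals of miR-212-3p and miR-132-3p on each of the 12 TSN arrays, on a log axis, by day; orange circles use the longer probe of each miRNA and grey squares the shorter. Day 9 lies at 7.92 to 14.4 with the longer probes, below the 23.4 to 42.9 of day 21.

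The 5p strands gave no signal. miR-212-5p was well above background on 0 of 24 arrays with either probe, with unscaled signals from -1.58 to 1.99 units, and all scaled values lay at the floor. miR-132-5p was likewise above background on 0 of 24 arrays, with signals from -1.55 to 0.807 units. Their probes, 16 to 18 bases long, share no more than 5 bases in a row with the partner strand. Of the hairpin pair, only the 3p strands were above background on any array, miR-212-3p on 12 TSN and 4 control arrays and miR-132-3p on 3 TSN arrays.

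The miRNAs whose scaled signal followed miR-212-3p most closely over the 24 arrays were miR-3968 (Pearson r = 0.963), miR-1906 (0.946), miR-8090 (0.946), miR-6366 (0.942) and miR-7002-5p (0.942). Of the 443 other miRNAs tested, 15 had an r above 0.9, and the median was 0.137. The arrays share slides and brightness, so r is a description. miR-6366 alone among these was well above background on all 24 arrays, and its log2 differences were 1.09, 1.06 and 1.90 at days 3, 9 and 21. miR-3968 lay at the floor in all control groups and had means of -3.54, -3.83 and -2.75 at days 3, 9 and 21 of TSN. For miR-132-3p no such measure exists, since its scaled values are constant.

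Other miRNAs tied to the settings in which the pair is known were examined from hand-made lists. Of 5 miRNAs linked to the response of immune cells to endotoxin, not all of them as induced, 3 were tested. At day 3 of TSN 1 of them was higher, miR-21a-5p by 0.47 (limma adjusted p = 0.0443), and 1 lower, miR-146a-5p at -0.68 (adjusted p = 0.00847). The share called over all miRNAs was 47.3% at that day. At day 9, 0 were higher and 2 lower, where 62.2% of all miRNAs were called. At day 21 all 3 were lower, miR-223-3p the most at -1.09 (limma adjusted p = 4.71e-05), where 44.8% of all miRNAs were called, and their median was -0.89 against 0.01 for all miRNAs. miR-155-5p and miR-146b-5p were above background on 0 arrays.

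Of 11 neuron-enriched or activity-regulated miRNAs, 7 were tested, and 4 were higher at day 3 of TSN, 1 at day 9 and 1 at day 21, while 2 were lower at day 9. The shares called over all miRNAs were 47.3%, 62.2% and 44.8%, so these counts are near or below the background. miR-219a-5p, a CREB-linked miRNA of the brain clock, was higher at all 3 days, by 0.93, 0.66 and 0.63 (limma adjusted p = 0.0141 at day 21). Its level was low, with a mean of -5.40 against a floor of -6.21, and it was above background on 12 of 24 arrays. These differences therefore rest in part on signals not above background. The defining neuron miRNAs miR-9-5p and miR-124-3p were above background on 0 arrays, while miR-128-3p was on all 24. The latter was 0.96 higher at day 3 (limma adjusted p = 0.000682). At days 9 and 21 its differences of 0.37 and -0.40 did not pass (limma adjusted p = 0.129 and 0.133). The list's median difference was 0.23, 0.00 and 0.01 at the 3 days, against 0.10, -0.04 and 0.01 for all miRNAs.

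Of 9 miRNAs of hepatic stellate cells and fibrosis, 8 were tested. At day 3 of TSN 4 were higher, with miR-29a-3p, which targets collagen messenger RNAs, at 0.91 and miR-29b-3p at 0.67, a share near the 47.3% called over all miRNAs. At day 9, 2 were higher and 2 lower, and at day 21 only miR-21a-5p passed the test, at -0.65 (limma adjusted p = 0.0084). Over all miRNAs 62.2% and 44.8% were called at these days, so these counts do not stand above the background. The list's median difference was 0.30, 0.14 and -0.25 at days 3, 9 and 21, against 0.10, -0.04 and 0.01 for all miRNAs.

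Within the TSN arm, markers of striated muscle and red cells were higher at day 9, the day with the highest measured mean of miR-132-3p and the lowest of miR-212-3p, although miR-212-3p at day 9 did not pass the test against day 3. The summed scaled signal of 4 striated muscle miRNAs was 0.485 to 4.89 at TSN day 9, against 0.0984 to 0.197 at TSN day 3 and 0.0691 to 0.146 at TSN day 21. Of these, 3 of 3 tested rose from day 3 to day 9, miR-133a-3p by 4.13, and miR-206-3p was above background on 0 arrays. Between these days 34.9% of the 444 miRNAs tested were called, 44 of them higher at day 9 and 111 lower, which is the background for the counts below too. The 5 red cell miRNAs summed to 75 to 94.6 at TSN day 9, against 28.3 to 48 at day 3 and 41.6 to 62.9 at day 21, and 4 of 5 rose from day 3 to day 9. Red cell sums on control arrays were 33.2 to 57, 33.2 to 65.8 and 53.7 to 95 at days 3, 9 and 21, so control day 21 overlapped with TSN day 9. The muscle sums of the controls were 0.0646 to 0.0924, 0.0578 to 0.105 and 0.0681 to 0.17. Of 4 hepatocyte miRNAs the sum was 0.522 to 4.90 at TSN day 9 and 0.455 to 1.03 at the other TSN days, which overlap, and 0 of 3 tested passed between days 3 and 9. The 4 platelet miRNAs summed to 1.40 to 1.82 at TSN day 9 and 1.57 to 2.29 at the other TSN days, which overlap, and 1 of 4 was lower at day 9 than at day 3. The part of these cells in the miR-212 and miR-132 values was not tested.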

How the data were processed

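Serum exosome RNA was measured on 24 one-colour miRNA arrays. The deposited scanner values are intensity; background was subtracted by Feature Extraction 10.7.1.1, per the file headers. The authors' deposited processed values were taken as log2, with scaling and centring unknown, and served as an alternative. Control and outlier spots were left out, spots averaged per probe, and arrays scaled by the 75th percentile of the 261 probes that were well above background (in more than a 0.5 share of spots) on all arrays. The floor was 0.0135, and the probe with the highest mean stood for a miRNA. The 444 miRNAs above background on all 4 arrays of a group were tested in one 6-group limma fit (limma 3.58.1 under R 4.3.3), Benjamini-Hochberg at 0.05 in each of 9 comparisons; it was tested on simulated data. Permutation tests were exact, over 70 allocations. Members and lists were chosen with earlier results of these data known. Named miRNAs are the members, the 5 most correlated, and list members of highest mean level or singled out after their values were seen. Same-numbered samples deviated together in TSN against control at day 9 (4 of 4 pairs, r 0.202 to 0.353 over 444 miRNAs; 2 of 4 over the 152 above background on all arrays), and in at most 3 of 4 pairs in the other 8 comparisons; this comes from the data, not the labels. Sequences are RefSeq GRCm38.p6, and 1608 of 1881 array names matched. Alternatives are in the closing section.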

Additional observations from a re-analysis of the deposited data

Results flagged for a closer look

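In TSN day 3, the log2 ratio of miR-212-3p over miR-132-3p had 1 sample apart from the other 3. Replicate 2 had a ratio of 38.7 where the others had 17.5 to 19.9, and its gap to the nearest array was 0.837 of the group's range, above Dixon's 95% critical value for 4 samples. On that array the miR-132-3p signal was 2.92 intensity units, the lowest of the TSN arrays and not well above background. Of 12 groups checked 1 met this rule, and chance gives about 1 in 20. Without replicate 2 the ratio at day 9 was still below day 3, at -0.90 on the log2 scale.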

How the results depend on the processing

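Dim signals limit these results: miR-132-3p lay near the background on all arrays, and 8 of 12 control arrays did not measure miR-212-3p above it. TSN against control, miR-212-3p at days 3, 9 and 21 moved to 2.67, 2.61 and 2.49 with the percentile over all probes and to 3.87, 3.73 and 4.16 with no scaling. It moved to 2.58 and 1.97 at days 3 and 9 with quantile normalization, to 1.59 and 1.47 at days 3 and 21 in the authors' values, to 2.05 and 1.10 at days 9 and 21 in the total gene signal, and to 1.28, 0.26 and 1.78 at the detection limit (chosen after seeing the data). It reversed with normexp (-0.77, -1.38 and -0.18), where the median of all miRNAs fell too, and at day 3 in the total gene signal (-0.52). The cause was not tested.

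Day 21 against day 9 of TSN missed the threshold of limma with the percentile over all probes (0.58), quantile normalization (0.72), normexp (0.72), the total gene signal (0.92) and the authors' values (0.54), with adjusted p of 0.0544 to 0.747. Day 9 against day 3 passed it with the mean of probes (-0.69, limma adjusted p = 0.00682) and with the replicate block (-0.48, limma adjusted p = 0.0409). In the other 8 alternatives it did not pass. The block changed no other call of miR-212-3p, and same-numbered samples of these days did not deviate together (0 of 4 pairs).

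Alternatives for miR-132-3p and the ratio were chosen after seeing the data. For miR-132-3p, day 9 against day 3 was 1.00 with the shorter probes, 1.07 in the total gene signal, -0.26 with normexp and -0.054 at the detection limit (exact permutation p 0.0571 to 0.914). Day 21 against day 9 was -0.91 with no scaling, -0.0074 with normexp and -0.22 at the detection limit (exact permutation p 0.0571 to 0.943). For the ratio, day 9 against day 3 was -0.19 with normexp, -1.65 in the total gene signal and -0.43 at the detection limit (exact permutation p 0.0571 to 0.2). Day 21 against day 3 was 0.54 with normexp and 0.71 at the detection limit (exact permutation p 0.0286). Day 21 against day 9 kept its side of the threshold, between 0.73 and 2.74, in the 5 that can move a ratio within an array.

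Leaving out each array in turn gave, for miR-212-3p, 1.94 to 2.14, 1.42 to 1.74 and 2.10 to 2.30 for TSN against control at days 3, 9 and 21. For day 9 against 3, 21 against 3 and 21 against 9 it gave -0.60 to -0.38, 0.35 to 0.54 and 0.82 to 1.03 in TSN, and -0.16 to 0.15, 0.18 to 0.39 and 0.13 to 0.45 in controls. In that order it gave 0.52 to 0.82, -0.28 to 0.0295 and -0.92 to -0.69 for miR-132-3p, whose sign turned without TSN day 3 replicate 3, and -1.32 to -0.90, 0.43 to 0.82 and 1.59 to 1.89 for the ratio.

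Counts of miRNAs called ranged over the settings from 178 to 388 (210 in the report), 206 to 405 (276) and 136 to 412 (199) for TSN against control. Between days they ranged from 58 to 167 (155), 1 to 34 (31) and 70 to 215 (193) in TSN, and 0 to 50 (61), 0 to 103 (101) and 0 to 102 (2) in controls. Single arrays moved them by over 1.5 times within arms, down to 13 without TSN day 21 replicate 1 (31), 19 without control day 9 replicate 2 (61) and 63 without control day 21 replicate 4 (101), and up to 28 without control day 21 replicate 1 (2).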
